A study of Homo sapiens with 4 samples.

Results

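DUSP6, DUSP10 and RRAS2 encode regulators of RAS and mitogen-activated protein kinase (MAPK) signalling, and 7 of the 5326 regions in an HNF4A binding study lay closest to them. The regions were selected by their closest gene in the authors' 3 deposited tables, joined on chromosome, start and end, and all 7 are given. The genes themselves were chosen from measured values, with the ratios of these tables known: regions of DUSP6 and RRAS2 were among the highest over background at high glucose, and a region of RRAS2 was among the highest between glucose levels. The values below that rest on those contrasts are therefore a description and carry no test. DUSP6 and RRAS2 had 3 regions each and DUSP10 had 1. Of the 4323 genes listed as closest to a region, 163 (3.77%) had 3 or more.

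HNF4A is a nuclear receptor of liver cells that binds DNA as a homodimer. It was mapped by chromatin immunoprecipitation with sequencing in HCCLM3, an established hepatocellular carcinoma line, to find its target genes under different glucose conditions. There were 4 libraries: HNF4A antibody at high glucose, nonspecific IgG at high glucose, HNF4A antibody at low glucose and IgG at low glucose. Each group was 1 library, so no value has a replicate error. The labels describe lentiviral stable lines that overexpress a full-length cDNA from a CMV promoter vector, but do not say which gene it was or which libraries came from such lines. Neither glucose concentration is labelled, and the one growth protocol, shared by all 4 libraries, names high glucose medium with serum.

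RAS proteins are membrane switches that are active when bound to GTP, and active RAS turns on the RAF, MEK and ERK kinases in sequence. DUSP6 is a cytoplasmic phosphatase that removes the activating phosphates from ERK. ERK signalling induces its gene, which makes it a classical negative feedback regulator. DUSP10, also called MKP5, acts mainly on the stress kinases p38 and JNK. RRAS2, also called TC21, is a RAS-related GTPase that signals through PI3 kinase and RAF, and so transmits signals rather than feeding back on them. Expression was not measured, and closeness of a region to a gene does not show that HNF4A regulates it.

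Regions are numbered along the chromosome within each gene, and coordinates are hg19. DUSP6 region 1 lay on chromosome 12 from 89769039 to 89770158, region 2 from 89779665 to 89780597 and region 3 from 89784420 to 89786161. These 3 regions were spread over 17.1 kb, with gaps of 9.51 and 3.82 kb. The next regions in the tables were 217.2 kb away on the lower side, closest to LOC728084, and 131.6 kb away on the upper side, closest to POC1B. DUSP10 had its single region on chromosome 1 from 222013030 to 222013708, and no other region lay within 624.9 kb of it. RRAS2 region 1 lay on chromosome 11 from 14279460 to 14280464, region 2 from 14395283 to 14396246 and region 3 from 14402449 to 14403216. Regions 1 and 2 of RRAS2 were 114.8 kb apart, and regions 2 and 3 were 6.20 kb apart. The nearest region assigned to another gene was 117.6 kb above RRAS2 region 3 and closest to COPB1. The shortest of the 7 regions measured 679 bp, the longest 1742 bp and the median one 964 bp, against 1030 bp for the median of all regions. Whether they fall in exons, introns or promoters was not analysed here.

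Reads are whole numbers recovered from the deposited levels. Over all 5326 regions the 4 libraries held 198683 to 402237 reads, with median reads per region of 50 (HNF4A, high), 26 (IgG, high), 35 (HNF4A, low) and 18 (IgG, low). Reads were divided by the relative size of their library, 0.982 to 1.099, before log2 ratios were taken, and the brackets after a ratio hold its exact 95% counting interval. The intervals cover counting error only: the libraries carried no molecular identifiers, so PCR copies cannot be told from separate molecules.

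DUSP6 region 1, the ERK phosphatase region farthest from its neighbours, held 112 HNF4A and 10 IgG reads at high glucose, and 51 HNF4A and 13 IgG reads at low glucose. Its HNF4A reads were above IgG in both conditions and highest at high glucose, while its IgG reads were few in both. The log2 ratio over IgG was 3.34 (2.41 to 4.44) at high glucose and 1.95 (1.05 to 2.95) at low glucose. Per length, it held 91.0 scaled HNF4A reads per kb at high glucose, at percentile 96.6 of all regions, and 8.99 IgG reads per kb, at percentile 8.45. A high HNF4A level and a low IgG level thus both entered its ratio.

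DUSP6 region 2 held 55 HNF4A and 22 IgG reads at high glucose, and 33 and 9 at low glucose. Both antibodies had more scaled reads at high glucose, 1.52-fold for HNF4A and 2.42-fold for IgG. The log2 ratio over IgG was 1.18 (0.44 to 1.96) in the high and 1.85 (0.75 to 3.10) in the low glucose pair. DUSP6 region 3, the longest of the 7, held 92 and 41 reads at high glucose and 57 and 26 at low glucose. Its ratios were close to each other, at 1.02 (0.47 to 1.59) and 1.11 (0.41 to 1.83). At high glucose, the interval of region 1 did not overlap those of regions 2 and 3 of the same gene. At low glucose the intervals of all 3 DUSP6 regions overlapped.

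The DUSP10 region, nearest to the p38 and JNK phosphatase gene, held 65 HNF4A and 6 IgG reads at high glucose, and 37 and 4 at low glucose. HNF4A stood about as far above IgG in both conditions, with log2 ratios of 3.29 (2.09 to 4.79) and 3.18 (1.71 to 5.13). It was the shortest of the 7 regions, and its 87.1 and 54.5 scaled HNF4A reads per kb at high and low glucose were at percentiles 96.2 and 91.7 of all regions. IgG there was at percentiles 8.26 and 6.69. With 6 and 4 IgG reads, each ratio spans more than 2 log2 units of counting error.

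RRAS2 region 1, near the RAS-related GTPase gene, held 128 HNF4A and 13 IgG reads at high glucose, and 31 and 14 at low glucose. HNF4A at high glucose stood apart from the other 3 libraries, and IgG had nearly the same reads in both conditions. The log2 ratio over IgG was 3.15 (2.33 to 4.10) in the high and 1.12 (0.17 to 2.15) in the low glucose pair. Its 115.9 scaled HNF4A reads per kb at high glucose were the highest of the 7 regions, at percentile 97.8 of all regions. At low glucose the 30.8 scaled HNF4A reads per kb were at percentile 39.9.

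RRAS2 region 2 held 41 HNF4A and 5 IgG reads at high glucose, and 30 and 9 at low glucose. Its ratio of 2.89 (1.55 to 4.59) at high glucose came with 38.7 scaled HNF4A reads per kb, at percentile 38.7, and with IgG at percentile 2.68. At low glucose the ratio was 1.71 (0.60 to 2.97). This region therefore ranked high by ratio with an HNF4A level below the median of all regions. RRAS2 region 3 held 28 HNF4A and 20 IgG reads at high glucose, and 31 and 4 at low glucose. HNF4A was nearly the same in both conditions and IgG was not, and the ratio was 0.34 (-0.54 to 1.24) in the high and 2.93 (1.43 to 4.89) in the low glucose pair.

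**Figure D1:**
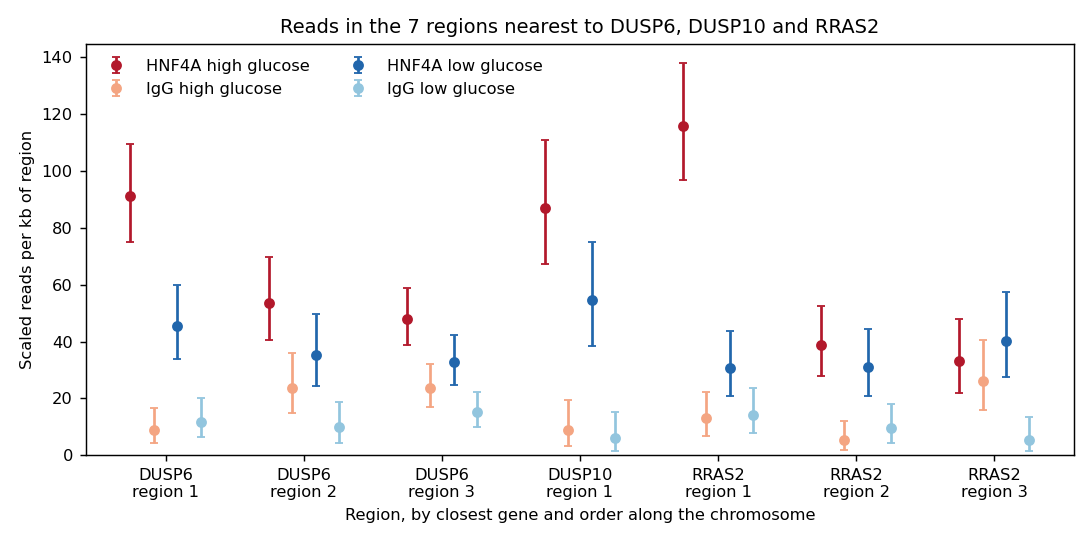
Scaled reads per kb (vertical axis) in the 7 regions, named by closest gene and order along the chromosome, for HNF4A and IgG at high and low glucose. Points are single libraries and bars are exact 95% Poisson counting intervals. HNF4A at high glucose reaches 115.9 per kb in RRAS2 region 1, and IgG at high glucose comes closest to HNF4A in RRAS2 region 3.

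Over IgG at high glucose, all 7 regions had a log2 ratio above 0, as did 84.2% of all regions, although RRAS2 region 3 turned to -0.45 once the median of all regions was set to 0. The median of the 7 was 2.89, and the median over all regions was 0.79. The interval lay above 0 in 6 of the 7, all but RRAS2 region 3, against 55.2% of all regions. These 6 regions had at least a 2-fold excess, against 41.6% of all regions, and none had a 2-fold deficit, against 1.05%. At low glucose 91.5% of all regions were above 0 and 56.2% had an interval above 0, and all 7 did. All 7 had at least a 2-fold excess, against 46.8% of all regions, and none a 2-fold deficit, against 0.488%. With the median of all regions set to 0, 3 of the 7 in place of 7 had a 2-fold excess at low glucose. Without that centring, the median of the 7 at low glucose was 1.85, beside 0.94 for all regions. Because the genes were chosen with these ratios known, the counts describe the regions and nothing is read from them.

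In the authors' deposited table for high glucose, 0 of the 7 regions passed a false discovery rate (FDR) of 0.05, as did 0% of all regions. The authors' deposited table gave 3 of the 7, all above IgG, an unadjusted p below 0.05, against 4.96% of all regions. The authors' deposited table gave p-values of 0.00163 for RRAS2 region 1, 0.00181 for DUSP6 region 1 and 0.0134 for DUSP10, each with an FDR of 0.865. At low glucose, 0 of the 7 passed the FDR in the authors' deposited table (0% of all regions). The authors' deposited table there gave 1 region above IgG, DUSP10 at 0.0334, an unadjusted p below 0.05, against 3.04% of all regions.

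**Figure D2:**
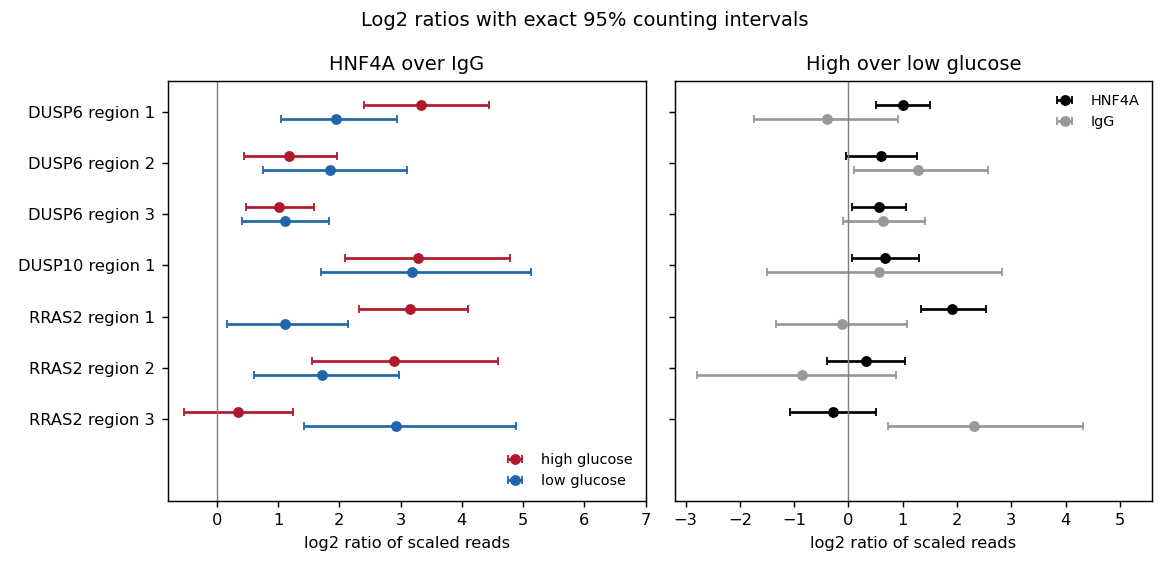
Log2 ratios of scaled reads (horizontal axes) for the 7 regions, HNF4A over IgG at each glucose level on the left and high over low glucose for each antibody on the right. Bars are exact 95% counting intervals of single libraries. The intervals at high and low glucose separate for RRAS2 region 1 and RRAS2 region 3, in opposite directions.

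Between the HNF4A libraries, RRAS2 region 1 had the largest excess at high glucose of the 7, with a log2 ratio of 1.91 (1.33 to 2.53), or 3.76-fold. It was the 10th highest of the 5326 regions. IgG in the same region stood at -0.12 (-1.33 to 1.08). DUSP6 region 1 followed at 0.999 (0.51 to 1.51), just short of 2-fold, with IgG at -0.39 (-1.74 to 0.91). Those 2 regions combined an HNF4A interval above 0 with an IgG ratio below 0.

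In the DUSP10 region the HNF4A ratio of high over low glucose was 0.68 (0.07 to 1.30) and the IgG ratio 0.57 (-1.51 to 2.84). For DUSP6 region 3 they were 0.56 (0.06 to 1.06) and 0.64 (-0.10 to 1.41). HNF4A and IgG thus had similar ratios in both regions, although the IgG interval of DUSP10 was wide. In DUSP6 region 2 HNF4A stood at 0.60 (-0.05 to 1.27) and IgG at 1.27 (0.10 to 2.58).

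RRAS2 region 2 had an HNF4A ratio of 0.32 (-0.40 to 1.04) and an IgG ratio of -0.86 (-2.79 to 0.87). RRAS2 region 3 had an HNF4A ratio of -0.28 (-1.07 to 0.50) and an IgG ratio of 2.31 (0.73 to 4.31). It was the only one of the 7 with fewer scaled HNF4A reads at high glucose, joined by RRAS2 region 2 at -0.04 once the median of all regions was set to 0. Its IgG ratio was the 66th highest of all regions. The 2 RRAS2 regions 6.20 kb apart therefore had IgG ratios of opposite sign.

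Of the 7 regions, 1 had at least a 2-fold HNF4A excess at high glucose, against 6.78% of all regions, and 0 had one at low glucose, against 0.713%. With the scaled IgG reads subtracted from HNF4A before the ratio was taken, RRAS2 region 1 stood at 2.63 and RRAS2 region 3 at -2.33, more than 2-fold higher at low glucose. The value of RRAS2 region 3 has no interval and rests on a small remainder at high glucose, 25.5 scaled HNF4A reads less 20.1 of IgG. Their counting intervals, 16.9 to 36.8 and 12.3 to 31.1, overlapped, and HNF4A without subtraction stood at -0.28. Without that subtraction, the median HNF4A ratio over the 7 was 0.60, beside 0.36 for all regions. For IgG, 2 of the 7 had at least a 2-fold excess at high glucose, DUSP6 region 2 and RRAS2 region 3, against 19.4% of all regions. In the authors' deposited table of the HNF4A libraries, 0 of the 7 passed the FDR (0% of all regions). The authors' deposited table gave 1 of them, RRAS2 region 1 at 0.000488, an unadjusted p below 0.05, against 4.39% of all regions.

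**Figure D3:**
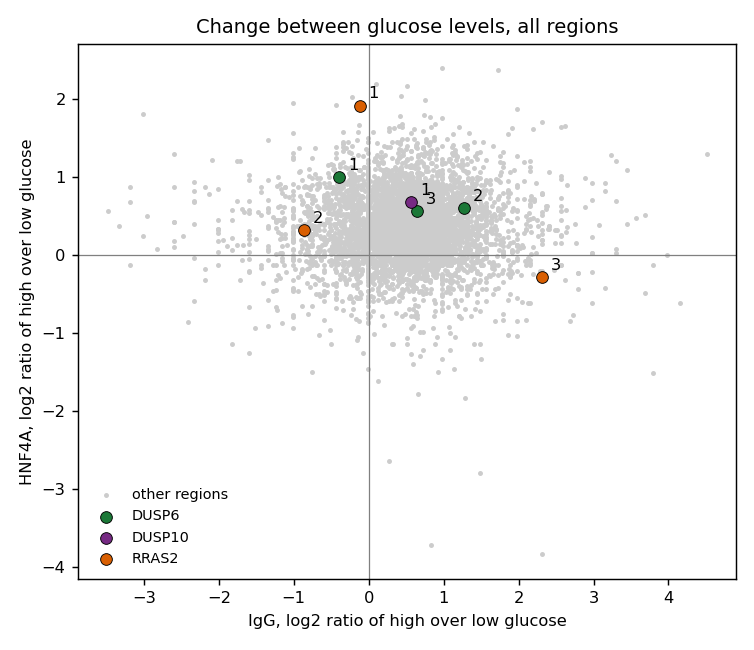
Log2 ratio of high over low glucose for IgG (horizontal axis) and for HNF4A (vertical axis) in all 5326 regions (grey), with the regions of DUSP6, DUSP10 and RRAS2 coloured and numbered along the chromosome. Each point is 1 region from single libraries. RRAS2 region 1 lies high on the HNF4A axis near 0 for IgG, and RRAS2 region 3 lies near 0 for HNF4A at 2.31 for IgG.

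The HNF4A over IgG ratio differed most between glucose levels in 2 regions of RRAS2, and in opposite directions. In RRAS2 region 1 it was higher at high glucose by 2.03 log2 units (0.67 to 3.38), a factor of 4.09, and HNF4A reads were the part that differed. In RRAS2 region 3 it was lower at high glucose, at -2.59 (-4.74 to -0.76), and IgG reads were the part that differed, at 20 and 4. With the IgG reads of both glucose levels pooled as one background, chosen after the data were seen, the difference in RRAS2 region 1 was 1.91 and that in RRAS2 region 3 was -0.28. A shared background cancels, so these values are the HNF4A ratios of high over low glucose by construction and no separate result.

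DUSP6 region 1 had a difference of 1.39 (-0.02 to 2.84) and RRAS2 region 2 one of 1.18 (-0.73 to 3.24). DUSP10 had a difference of 0.11 (-2.26 to 2.29), or -0.02 when the libraries were scaled on the top 1% of regions, and its interval leaves room for more than 4-fold either way. DUSP6 region 3 stood at -0.09 (-1.01 to 0.82), a sign that turned under 4 of the alternatives, and DUSP6 region 2 stood at -0.67 (-2.14 to 0.71), which was 0.60 with IgG pooled. The ratio was at least 2-fold higher at high glucose in 3 of the 7 regions, against 8.49% of all regions, and at least 2-fold lower in 1, against 11.9%. With IgG pooled, where the difference is the HNF4A ratio of high over low glucose alone, 1 region in place of 3 was at least 2-fold higher.

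The share of a gene's reads that falls in each of its regions does not depend on how the libraries are scaled. RRAS2 was chosen with the HNF4A ratio of a region between glucose levels known, so its HNF4A shares are a description. At high glucose, RRAS2 region 1 held 65.0% (57.9 to 71.6, exact Clopper-Pearson 95% interval) of the 197 HNF4A reads of the gene. At low glucose it held 33.7% (24.2 to 44.3) of 92. At low glucose the HNF4A reads of RRAS2 were thus spread almost evenly over its regions, with 31, 30 and 31 reads, whereas at high glucose most lay in 1 region. The IgG share of RRAS2 region 1 was 34.2% (19.6 to 51.4) of 38 reads at high glucose and 51.9% (31.9 to 71.3) of 27 at low glucose, intervals that overlap.

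RRAS2 region 3 held 14.2% (9.66 to 19.9) of the HNF4A reads at high glucose and 33.7% (24.2 to 44.3) at low glucose. Its IgG share was 52.6% (35.8 to 69.0) at high glucose and 14.8% (4.19 to 33.7) at low glucose. The HNF4A and IgG shares of this region therefore differed in opposite directions between the glucose levels. Its HNF4A reads were nearly the same, 28 at high and 31 at low glucose. Those of RRAS2 region 1 were 128 and 31, which enter the total and lower the share of region 3 at high glucose.

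The distribution over DUSP6 was more alike between glucose levels, a description since RRAS2 was chosen with its HNF4A ratio between glucose levels known. DUSP6 region 1 held 43.2% (37.1 to 49.5) of 259 HNF4A reads at high glucose and 36.2% (28.3 to 44.7) of 141 at low glucose. Its IgG share was 13.7% (6.77 to 23.8) of 73 reads and 27.1% (15.3 to 41.8) of 48. In both IgG libraries the longest region, DUSP6 region 3, held the largest share, at 56.2% (44.1 to 67.8) and 54.2% (39.2 to 68.6).

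**Figure D4:**
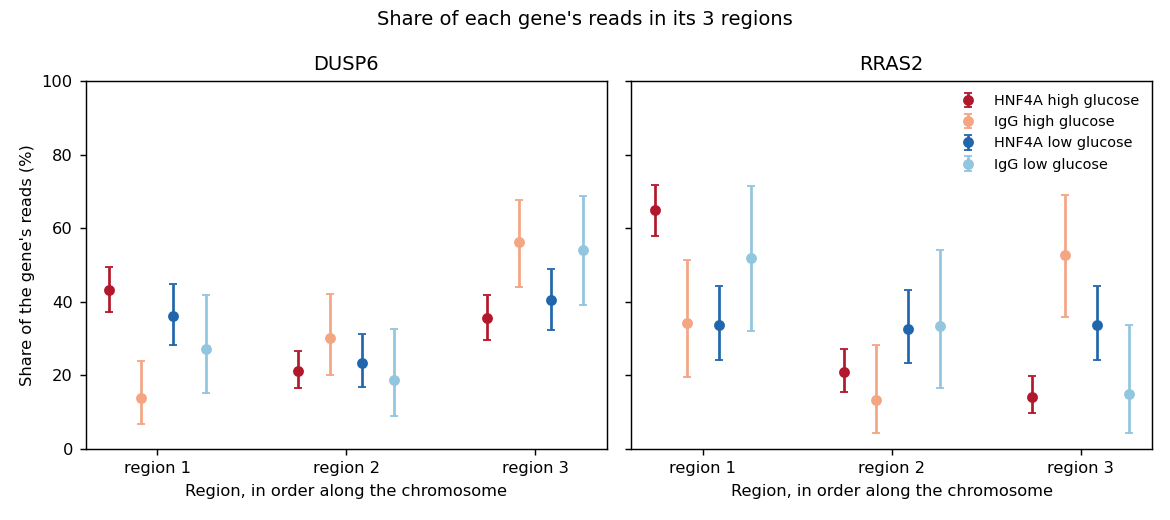
Share of each gene's reads (vertical axis, percent) in the 3 regions of DUSP6 (left) and RRAS2 (right), numbered along the chromosome, for the 4 libraries. Bars are exact 95% Clopper-Pearson intervals for counting error. The HNF4A share of RRAS2 region 1 is 65.0% at high and 33.7% at low glucose, and the shares over DUSP6 lie closer together.

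Summed over its regions, RRAS2 had 197 HNF4A and 38 IgG reads at high glucose, and 92 and 27 at low glucose. In the high glucose pair the gene as a whole had a smaller excess over IgG than its region 1, with a log2 ratio of 2.23 (1.72 to 2.77). In the low glucose pair the ratio of the whole gene, 1.74 (1.11 to 2.42), was above the 1.12 of region 1. Between the HNF4A libraries the summed reads stood at 0.96 (0.60 to 1.34). The difference between the ratios over IgG was 0.49 (-0.38 to 1.33), since regions 1 and 3 partly cancelled. DUSP6, summed, had ratios over IgG of 1.68 (1.30 to 2.08) in the high glucose pair and 1.53 (1.05 to 2.03) in the low glucose pair, with HNF4A at 0.74 (0.44 to 1.05) between glucose levels and IgG at 0.59 (0.04 to 1.15).

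The members were also set beside the next regions along the chromosome. These are listed regions themselves and no background, and some had HNF4A well above IgG. The nearest lay 131.6 kb from the DUSP6 regions, 624.9 kb from DUSP10 and 117.6 kb from the RRAS2 regions. The genes were chosen with these ratios known, so a member region standing above its neighbours is a description. Among the 10 nearest regions of other genes, 5 on each side of RRAS2, HNF4A at high glucose had 27.2 to 51.5 scaled reads per kb. All were below the 115.9 of RRAS2 region 1, while RRAS2 regions 2 and 3, at 38.7 and 33.2, lay within that range. The HNF4A ratios of high over low glucose in those 10 ran from 0.24 to 0.86. RRAS2 region 1 lay above that range at 1.91, region 2 within it at 0.32 and region 3 below it at -0.28. IgG ratios of high over low glucose in those 10 ran from -0.79 to 2.07, so the 2.31 of RRAS2 region 3 was just above their range. Around DUSP6, the 10 regions had 32.4 to 67.5 scaled HNF4A reads per kb at high glucose, below the 91.0 of DUSP6 region 1. DUSP6 regions 2 and 3, at 53.7 and 48.1, lay within that range. Around DUSP10 the range was 29.2 to 71.2, below its 87.1. IgG at high glucose around DUSP10 ran from 7.53 to 22.6 scaled reads per kb, a range that holds the 8.90 of the DUSP10 region. The highest log2 ratio over IgG at high glucose around DUSP6 was 4.55, above the 3.34 of DUSP6 region 1. Around DUSP10 and RRAS2 the highest were 2.63 and 2.28, below the 3.29 of DUSP10 and the 3.15 of RRAS2 region 1.

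The genes most like each member were found from the distance between log2 ratios (HNF4A over IgG at each glucose level and HNF4A between them), over these 4 libraries, with regions below the median level left out. The region of the member with the most reads was used. For DUSP6 this was region 3, and the closest were regions of NACC2, CXCR3 and ARHGEF2, at distances of 0.08 to 0.09 log2 units. For DUSP10 the closest were FAM110B at 0.26, LENG8 at 0.29 and PAOX, a polyamine oxidase gene, at 0.59. For RRAS2 region 1 the closest were LOC101927901 at 0.68 and AHR and ERCC6L at 0.72 each. AHR, the aryl hydrocarbon receptor gene, had 98 HNF4A and 13 IgG reads at high glucose and 22 and 15 at low glucose.

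The wider RAS and MAPK pathway was described through 8 lists with 155 genes, of which 53 had a region, each represented by its region with the most reads. At high glucose 27 of the 53 had at least a 2-fold excess over IgG and 0 a 2-fold deficit, against 39.3% and 0.925% of all 4323 genes represented the same way. At low glucose the counts were 30 and 0, against 46.7% and 0.254%. Between HNF4A libraries 3 genes had at least a 2-fold excess at high glucose, against 6.57%, and 0 at low glucose, against 0.532%. Those 3 were RRAS2, at 1.91, and 2 targets of ERK signalling, EGR3 at 1.24 (0.56 to 1.97) and MYC at 1.12 (0.54 to 1.72). Averaged over its regions RRAS2 stood at 0.65, which left 2 genes in place of 3. The median ratios over IgG of the 53 were 1.02 and 1.20, beside 0.74 and 0.94 for all genes.

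Of 10 dual specificity phosphatases of MAPKs, 4 had a region: DUSP5, DUSP6, DUSP10 and DUSP16. All 4 were above IgG at both glucose levels, as were 83.8% of all genes at high and 93.0% at low glucose. At least 2-fold above IgG were 3 of them at high glucose, against 39.3% of all genes, and 4 at low glucose, against 46.7%. DUSP5, a nuclear ERK phosphatase gene, had 38 HNF4A reads against a listed 1 IgG read at high glucose, which may stand for 0, a log2 ratio of 5.10 (2.54 to 10.44). It had 19 and 6 reads at low glucose, a ratio of 1.64 (0.26 to 3.25). DUSP16, a phosphatase gene of JNK and p38, had 79 and 36 reads, then 57 and 11 in the low glucose pair, with ratios of 0.99 (0.40 to 1.60) and 2.35 (1.40 to 3.43). Of these 4 genes, none had a 2-fold HNF4A difference between glucose levels, against 6.57% of all genes higher and 0.532% lower at high glucose. DUSP6 was represented there by region 3, at 0.56. Its region 1 stood at 0.999, or at 1.28 with the scaled IgG reads subtracted. Of 7 Sprouty and SPRED inhibitors of RAS signalling, SPRED2 and SPRY3 had a region. SPRED2 had a ratio of 0.62 (0.11 to 1.15) in the high glucose pair, then 1.20 (0.52 to 1.93) in the low glucose pair, and SPRY3, with 14 and 6 reads at high and 11 and 7 at low glucose, at 1.08 (-0.39 to 2.74) and 0.63 (-0.87 to 2.23).

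Of 21 RAS subfamily GTPases, 9 had a region, and RRAS2, by its region with the most reads, had the highest ratio over IgG of these at high glucose. RRAS2 was chosen with these ratios known, so its place among the 9 is a description. Averaged over its regions RRAS2 stood at 2.13, below RASD2 and RAP2B. RASD2 stood at 2.70 (1.35 to 4.41) and RAP2B at 2.25 (0.68 to 4.25), with 5 and 4 IgG reads. RALA stood at 0.97 (0.42 to 1.55), RALB at 0.98 (0.22 to 1.78), RAP1B at 0.99 (0.21 to 1.80) and RIT1 at 0.51 (0.16 to 0.86). HRAS, with 30 HNF4A and 36 IgG reads, stood at -0.41 (-1.16 to 0.33). At low glucose all 9 were above 0, against 93.0% of all genes, led by RASD2 at 2.85 (1.11 to 5.23) and RALB at 1.86 (1.04 to 2.75), with RRAS2 at 1.12. Between HNF4A libraries the other 8 GTPases ranged from -0.43, for RALB, to 0.57, for RASD2, and RRAS2 at 1.91 lay outside that range. Averaged over its regions RRAS2 stood at 0.65, close to RASD2.

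Among RAS exchange factors and GTPase activating proteins 4 of 24 had a region, with RAPGEF1 at 2.07 (1.30 to 2.92) and SOS1, the main activator of RAS behind receptors, at 1.78 (1.20 to 2.40) over IgG at high glucose. By the region with the most reads, RAPGEF4, at 1.03, and RAPGEF3, at 0.89, were the lowest. Averaged over its 3 regions RAPGEF1 stood at 0.67, below both. Of 24 receptors and adaptors 9 had a region, with a median of 0.73. INSR at 1.65 (0.80 to 2.58) and EGFR at 1.64 (0.64 to 2.76) were the highest. MET at 0.25 (0.14 to 0.36) and the adaptor FRS2 at -0.44 (-1.17 to 0.28) were the lowest. MET held 1535 HNF4A and 1165 IgG reads at high glucose, where the medians of all regions were 50 and 26. Of 14 ERK cascade kinases and scaffolds 7 had a region, with the lowest median of the 8 lists at high glucose, 0.51. The scaffold KSR2 stood at 1.31 (0.70 to 1.95) and KSR1 at 0.89 (0.07 to 1.76), and the kinase gene MAP2K1 was the lowest at -0.56 (-1.77 to 0.61).

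Of 28 JNK and p38 cascade genes, mostly kinase genes, 8 had a region, with a median of 1.35. MAP3K9 led at 2.66 (0.92 to 5.05), then MAPK13 at 2.39, from 29 HNF4A and 5 IgG reads. The lowest were MAP3K10 at 0.71 (0.06 to 1.38) and MAPK8IP2 at -0.15 (-0.82 to 0.53). Of 27 ERK output genes 10 had a region, with a median of 1.62. EGR3 stood at 3.07 (1.94 to 4.44) and FOS at 2.53 (1.44 to 3.81). PHLDA1 stood at 0.46 (0.08 to 0.85) and FOSB at -0.21 (-0.63 to 0.22). Averaged over its 4 regions PHLDA1 stood at 1.31, not among the lowest of the list. EGR3 held 65 HNF4A and 7 IgG reads at high glucose, nearly those of DUSP10. At low glucose EGR3 held 25 and 8, where DUSP10 held 37 and 4.

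**Figure D5:**
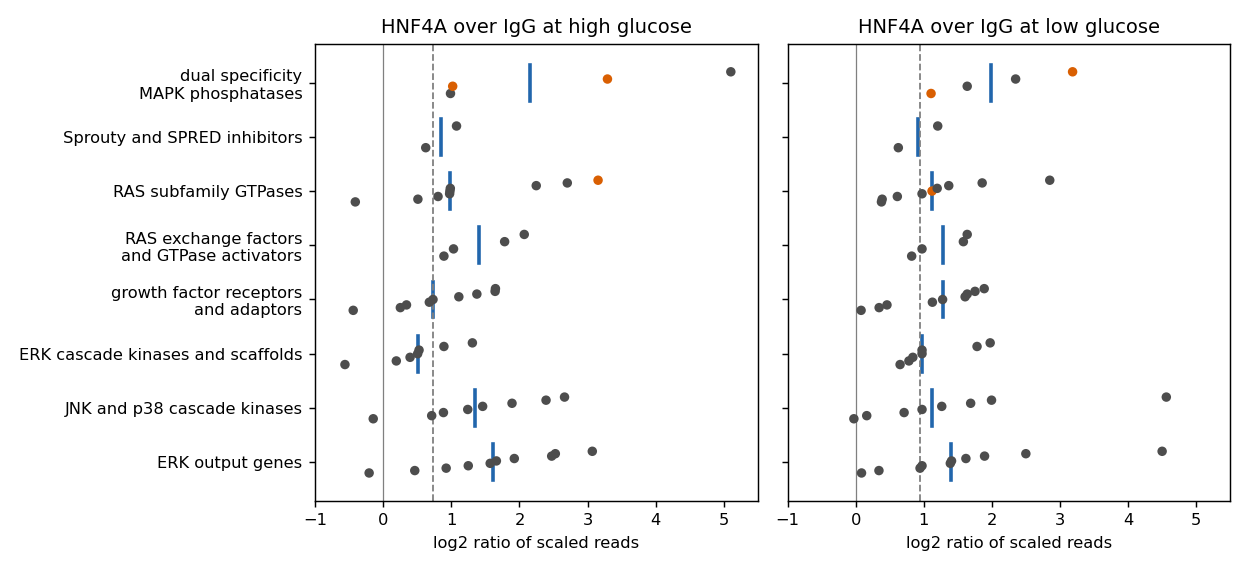
Log2 ratios of HNF4A over IgG (horizontal axes) at high glucose (left) and low glucose (right) for the 53 pathway genes with a region, in 8 lists. Points are genes, with DUSP6, DUSP10 and RRAS2 in orange, blue bars are list medians, and the dashed line is the median of all 4323 genes, 0.74 at high and 0.94 at low glucose.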

How the data were processed

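HNF4A and IgG libraries at high and low glucose, 1 per group, were taken from 3 deposited tables. Per the submitters' processing notes, bcl2fastq, Bowtie 1.1.2, MACS, DiffBind and HOMER were used with hg19, with no settings stated. Per the file headers, the authors' log2 levels, log2 folds, p-values and FDR are listed per region. Adjusting the deposited p-values by Benjamini-Hochberg over 5326 regions returned the deposited FDR.

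On the linear scale, 100% of levels were whole multiples (within 0.01) of the value of 1 read in that library, which gave reads and relative library sizes. Values under 1 read do not occur, so a listed 1 may be 0. Recovery and intervals were checked on simulated reads. Ratios carry exact Clopper-Pearson 95% intervals, and differences of ratios carry exact conditional intervals, computed with scipy 1.17.1. No test was run across regions, and 2-fold was the threshold for counts.

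The members, lists and comparisons were chosen with earlier results of these data known. The text names all 7 member regions, the 3 most alike genes per member, all phosphatases, inhibitors and RAS GTPases with a region, and up to 2 genes at each end of the other lists at high glucose, except some genes not reported here; MYC, below that limit, was named after its values were seen. Alternatives changed the scaling, the reads added, the regions used per gene, the threshold and the IgG background. No hg19 sequence or annotation was used here.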

Additional observations from a re-analysis of the deposited data

Results flagged for a closer look

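In 4 of the 7 regions the HNF4A and IgG libraries differed in opposite directions between high and low glucose, as they did in 30.5% of all 5326 regions. The difference between the antibodies was not tested, and each direction rests on 1 library per group. In DUSP6 region 1 the log2 ratio of high over low glucose was 0.999 for HNF4A and -0.39 for IgG. In RRAS2 region 1 it was 1.91 for HNF4A and -0.12 for IgG. In RRAS2 region 2 it was 0.32 for HNF4A and -0.86 for IgG. In RRAS2 region 3 it was -0.28 for HNF4A and 2.31 for IgG. The IgG reads behind these ratios were 10 and 13, 13 and 14, 5 and 9, and 20 and 4 at high and low glucose.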

How the results depend on the processing

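The alternatives gave 183 values of single regions or of a gene's regions summed. Of these, 0 turned from an interval that left out 0 to the other sign. The interval was left by 12 values, and 9 had another sign than the main value. The summed values of DUSP10, which had 1 region, could not differ. Centring on the medians of all regions (0.79 and 0.94 over IgG, 0.36 and 0.51 between glucose levels) left 3 of 7 regions at least 2-fold above IgG at low glucose in place of 7, and 1 in place of 2 for IgG at high over low glucose. For HNF4A at high over low glucose, 2 regions in place of 1 were at least 2-fold higher without scaling and 2 with IgG subtracted. With pooled IgG, an alternative added after the data were seen, the ratio over IgG was at least 2-fold higher at high glucose in 1 region in place of 3, since both ratios then share one background by construction. With 1.5-fold in place of 2-fold, 17 pathway genes in place of 3 had an HNF4A excess at high glucose. In the authors' deposited tables, an unadjusted p in place of the FDR gave 264, 162 and 234 regions higher, in place of 0. No paired analysis was possible because each group is 1 library. IgG reads of 4 to 41 per region limit every ratio over IgG.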
